A study of Mus musculus with 9 samples.

Results

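The genes described here are 31 enzymes and carriers of the mitochondrial matrix and inner membrane that oxidise fatty acids, handle ketone bodies and propionate, or uncouple respiration. They were taken by symbol from the table of 28965 genes, and all 31 symbols were found. The cells were mouse 3T3-L1, an established line of fibroblast-like precursors that can be driven to form adipocytes, wild type per the labels, and their RNA was sequenced. In the OA_T0 group, 3 libraries came from cells given adipogenic cocktail, 100 µM oleic acid bound to albumin and 5 µM T0901317, which activates the liver X receptors (LXR). The 3 OA libraries came from cells given cocktail and the same oleic acid, and the 3 MDI libraries from cells given cocktail and the albumin vehicle. The cocktail, shared by all groups, held 0.1 µg/mL insulin, 30 µg/mL isobutylmethylxanthine and 0.1 µg/mL dexamethasone, and lasted 24 h. No group received T0901317 without oleic acid, and none went without the cocktail. The labels do not say if a group's libraries come from separate cultures; the spread behind each p-value may therefore be technical. As a model, all libraries are of 1 cell line. The comparison of OA with MDI addresses the effect of oleic acid on top of the cocktail, that of OA_T0 with OA the effect of the LXR agonist on top of oleic acid, and that of OA_T0 with MDI the effect of both.

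In mitochondrial beta-oxidation a fatty acid bound to coenzyme A is shortened in a cycle of dehydrogenation, hydration, a second dehydrogenation and thiolytic cleavage. Acyl-CoA dehydrogenases start the cycle and pass electrons to the electron transfer flavoproteins, which feed the respiratory chain through a quinone reductase. Unsaturated acids such as oleic acid need auxiliary enzymes that move or reduce the double bond, odd and some branched chains end in propionyl-CoA, and ketone bodies are taken back into the cycle by a CoA transferase. Many of these genes are known targets of the peroxisome proliferator-activated receptors (PPARs), which fatty acids can activate.

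Values are deposited normalised counts per gene. Estimated depth ranged from 18.0 to 59.9 M fragments per library, with the floor of 3 fragments at 1.35 to 4.62 units. A ribosomal RNA gene took 3.06% to 5.97% of the values in 8 libraries and 0.649% in OA replicate 1; 3.06% was that of OA_T0 replicate 3. All 10 preadipocyte and fibroblast markers passed the filter (a mean value of at least 10), against 3 of the 9 adipocyte markers with a row (10 listed). The summed level of the preadipocyte list was 288618 to 335594 in OA_T0, 327673 to 361909 in OA and 310773 to 336247 in MDI. Adiponectin (Adipoq), which defines mature adipocytes, stood at 0, 2.01 and 3.08 in OA_T0, 1.12, 1.34 and 1.00 in OA and 3.15, 1.09 and 6.76 in MDI, of which those in MDI replicate 1 and MDI replicate 3 lay above their floors of 1.35 and 3.38. Of the markers with a row, the filter was passed by 2 of 4 brown adipocyte, 3 of 8 leukocyte, 0 of 6 endothelial, 1 of 3 epithelial and 1 of 5 muscle markers. The brown adipocyte, epithelial and muscle lists held 6 symbols each, and those without a row could not be judged. Adgre1, the brown adipocyte gene Cox8b and the muscle genes Myog and Ckm were listed at 0 throughout. In bulk RNA, more cells expressing a gene and more RNA of it per cell cannot be told apart.

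Of the 31 genes, 29 passed the filter and were tested with limma; the ketone enzyme Bdh1 and the carrier Ucp3 did not. In OA against MDI, 9 of the 29 rose and 1 fell at an adjusted p below 0.05, where 3.43% of all 15002 tested genes rose and 3.36% fell. In OA_T0 against OA, 5 rose and 8 fell, where 8.27% of all tested genes rose and 6.84% fell. In OA_T0 against MDI, 3 rose and 0 fell, where 1.25% of all tested genes rose and 1.36% fell; at an unadjusted p below 0.05 the members numbered 9 higher and 0 lower, where 10.6% and 7.87% of all tested genes did. At that unadjusted threshold the members numbered 14 higher and 1 lower in OA against MDI (11.1% and 10.1% of all tested genes) and 7 higher and 12 lower in OA_T0 against OA (15.6% and 14.3%). The median log2 fold change of the tested members was 0.11 in OA against MDI, beside 0.01 over all tested genes, -0.10 in OA_T0 against OA, beside -0.00 over all tested genes, and 0.11 in OA_T0 against MDI, beside 0.02. Counted by library, the values of 13 members were higher in all OA than in all MDI libraries and those of 1 lower, where this held for 13.4% and 12.6% of all tested genes. Between OA_T0 and OA the count was 7 higher and 12 lower, where it was 17.1% and 15% of all tested genes. Between OA_T0 and MDI it was 7 higher and 0 lower, beside 13.3% and 10.2%. OA against MDI and OA_T0 against OA share the OA libraries, so a high OA value enters both with opposite sign.

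The 9 that rose in OA were Acadvl, Acadl, Hadh, Acaa2, Decr1, Etfa, Etfb, Etfdh and Ucp2. All but Ucp2 belong to the beta-oxidation cycle, its auxiliary enzymes or the electron transfer flavoproteins. The 8 that fell in OA_T0 against OA were Acadvl, Acadl, Acaa2, Decr1, Etfa, Etfb, Etfdh and Ucp2. The member that fell in OA was Oxct1, the ketone body CoA transferase, and it rose in OA_T0 against OA with Echs1, Hsd17b10, Ivd and Pcca. The other 15 tested members passed in none of the comparisons.

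**Figure D1:**
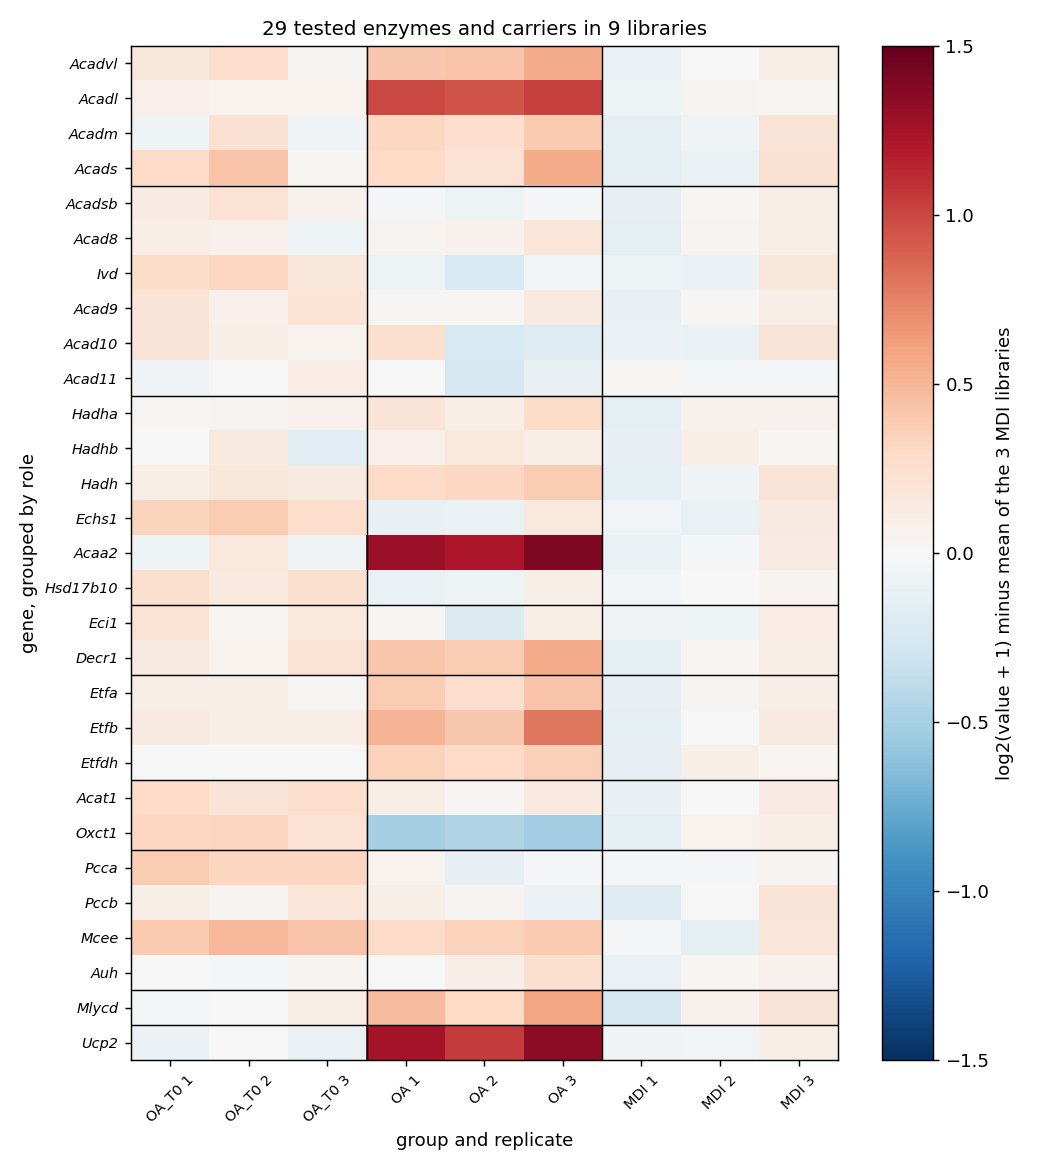
Each cell gives log2(value + 1) of a tested member (rows, grouped by role with lines between groups) in a library (columns) minus the mean of the 3 MDI libraries. Acaa2, Acadl and Ucp2 are darkest red in the 3 OA columns, Oxct1 is blue in them, and OA_T0 replicate 1 to 3 lie near the MDI columns for the genes that rose in OA.

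Among the straight-chain acyl-CoA dehydrogenases, which catalyse the first step at decreasing chain length, the genes for long chains rose in OA. Acadl, the long-chain enzyme, had normalised counts of 1595, 1576 and 1573 in OA_T0, 3012, 2913 and 3082 in OA and 1455, 1557 and 1546 in MDI. The OA libraries stood apart at about the same height, and every OA_T0 library lay a little above every MDI library. The mean was 1.98-fold that of MDI in OA (log2 fold change 0.98, SE 0.06, limma adjusted p = 4.57e-08), and OA_T0 differed from OA by a log2 fold change of -0.92 (SE 0.06, limma adjusted p = 4.15e-08). Acadvl, the very-long-chain enzyme, which binds the inner membrane, had 1771, 1880.4 and 1620.2 in OA_T0, 2083, 2111 and 2317 in OA and 1471, 1584 and 1668 in MDI. Every OA value exceeded every MDI value, while OA_T0 lay between and overlapped MDI. It rose in OA (log2 fold change 0.46, SE 0.07, limma adjusted p = 0.00112) and fell in OA_T0 against OA (log2 fold change -0.31, SE 0.07, limma adjusted p = 0.00987). The second call was lost when OA replicate 1 and OA_T0 replicate 3, both low in ribosomal RNA, were left out (limma adjusted p = 0.0696).

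The medium-chain and short-chain enzymes did not pass at the settings used throughout. Acadm, the medium-chain dehydrogenase, had 1124, 1373 and 1129 in OA_T0, 1456, 1401 and 1542 in OA and 1058, 1135 and 1344 in MDI. Its OA values lay above all others, and neither contrast passed (log2 fold change 0.32, SE 0.09, limma adjusted p = 0.0526 in OA against MDI; adjusted p = 0.0533 in OA_T0 against OA). Acads, the short-chain enzyme, averaged 950.1 ± 134 in OA_T0, 1023 ± 128 in OA and 802 ± 117 in MDI (SD, n = 3 each), with limma adjusted p = 0.0910 in OA against MDI; it passed without MDI replicate 3 (0.0227) or OA_T0 replicate 3 (0.0403). Acadm passed in OA against MDI without MDI replicate 3 (limma adjusted p = 0.0113), without OA_T0 replicate 2 (0.0246) or without OA_T0 replicate 3 (0.0362). In OA_T0 against OA it passed without MDI replicate 1 (limma adjusted p = 0.0459), MDI replicate 3 (0.0277) or OA_T0 replicate 2 (0.0109). It also passed in both comparisons when any of 5 other settings was used, namely robust estimates, equal totals, a fit restricted to the groups compared, a filter at 50 or quantile normalisation (limma adjusted p = 0.0276 to 0.0466 in OA against MDI and 0.0199 to 0.0482 in OA_T0 against OA), so its calls lay at the threshold. As a share of the summed level of these 4 genes per kb of exon, Acadl made up 28.1 to 32.2% in OA_T0, 39.7 to 41.7% in OA and 29.5 to 32.5% in MDI. The share of Acadl was thus higher in every OA library than in any other library, as a description of the ratio.

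The electron transfer flavoproteins, which collect electrons from all acyl-CoA dehydrogenases, passed in both contrasts with all 3 genes. Etfa, the alpha subunit, had 2409.7, 2403 and 2281 in OA_T0, 2941, 2721 and 3040.1 in OA and 2069, 2314 and 2404 in MDI. Etfb, the beta subunit, had 1957, 1886 and 1906 in OA_T0, 2529, 2364 and 3082 in OA and 1616, 1779.9 and 1963 in MDI. Etfdh, the quinone reductase of the inner membrane, had 1307, 1307 and 1304 in OA_T0, 1665, 1597 and 1679.7 in OA and 1199, 1395 and 1336 in MDI. For each of the 3 genes the OA libraries lay above all libraries of both other groups, which overlapped each other. OA replicate 3 was the highest for Etfb. In OA the log2 fold changes were 0.36 for Etfa (limma adjusted p = 0.00410), 0.57 for Etfb (adjusted p = 0.00126) and 0.33 for Etfdh (adjusted p = 0.00624). In OA_T0 against OA they were -0.29 (limma adjusted p = 0.00792), -0.46 (adjusted p = 0.00281) and -0.33 (adjusted p = 0.00301). The fall of Etfa did not pass without the libraries low in ribosomal RNA (limma adjusted p = 0.0960). The ratio of Etfb to Etfa, each per kb of exon, was 1.22 to 1.3 in OA_T0, 1.34 to 1.58 in OA and 1.2 to 1.27 in MDI, highest in the OA libraries.

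Because the 3 flavoprotein genes moved together, the 250 bases before their RefSeq starts are shown (build GRCm38.p6, 5′ to 3′ on the gene's strand). Capitals mark the letters CCAAT or their reverse complement, the box bound by NF-Y.
Etfa (chr9:55512244-55512493, - strand): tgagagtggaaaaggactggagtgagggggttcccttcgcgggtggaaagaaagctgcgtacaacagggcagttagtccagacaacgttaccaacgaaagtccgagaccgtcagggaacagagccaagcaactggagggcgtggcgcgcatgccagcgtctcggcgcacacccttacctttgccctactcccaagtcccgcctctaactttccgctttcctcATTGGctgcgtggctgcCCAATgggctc
Etfb (chr7:43443822-43444071, + strand): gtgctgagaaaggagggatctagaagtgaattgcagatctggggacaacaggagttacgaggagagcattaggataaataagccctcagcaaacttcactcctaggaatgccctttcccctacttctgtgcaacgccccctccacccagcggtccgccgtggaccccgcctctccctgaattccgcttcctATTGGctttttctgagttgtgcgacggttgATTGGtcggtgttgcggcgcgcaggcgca
Etfdh (chr3:79628768-79629017, - strand): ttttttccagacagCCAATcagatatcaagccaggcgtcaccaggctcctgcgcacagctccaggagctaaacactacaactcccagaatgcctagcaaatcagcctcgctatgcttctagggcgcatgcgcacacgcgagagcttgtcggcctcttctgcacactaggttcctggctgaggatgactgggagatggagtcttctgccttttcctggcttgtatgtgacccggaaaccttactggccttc
Etfa and Etfb each held 2 matches within 60 bases of the start, at 28 and 11 bases before it in Etfa and at 59 and 29 in Etfb, and Etfdh held 1 at 236. Of 27 members with a promoter in the RefSeq table, 11 held CCAAT on either strand, or 40.7%, against 33.8% of all 32851 promoter windows of that length. Beside the flavoprotein genes these were Acad8, Acad11, Hadh, Hsd17b10, Ivd, Mcee, Mlycd and Pcca. Members were counted per gene, over 29 windows, and the background per window, so the shares are not of like units. Hadh also rose in OA against MDI, but Hsd17b10, Ivd and Pcca rose in OA_T0 against OA, where the flavoprotein genes fell. Acad8, Acad11, Mcee and Mlycd passed in no comparison. A match is a description of letters and not of binding.

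In the later steps of the cycle Acaa2 and Hadh rose in OA. Acaa2, the mitochondrial 3-ketoacyl-CoA thiolase that releases acetyl-CoA, had 862, 1002 and 866 in OA_T0, 2212, 2089 and 2372 in OA and 839.8, 886 and 982 in MDI. This was the largest rise among the members: the OA mean was 2.46-fold the MDI mean (log2 fold change 1.30, SE 0.08, limma adjusted p = 1.05e-07). In OA_T0 the mean was 2.44-fold lower than in OA (log2 fold change -1.29, SE 0.08, limma adjusted p = 6.01e-08), and the OA_T0 and MDI libraries overlapped. Hadh, the 3-hydroxyacyl-CoA dehydrogenase of medium and short chains, had 2199, 2314 and 2253 in OA_T0, 2522, 2563 and 2689 in OA and 1873, 1982 and 2354 in MDI. It was higher in OA than in MDI without overlap (log2 fold change 0.33, SE 0.07, limma adjusted p = 0.0146), a call that did not hold without MDI replicate 1 (adjusted p = 0.0719), MDI replicate 2 (0.0893) or OA replicate 3 (0.0509), nor with no filter (0.0672). Against OA, Hadh in OA_T0 had limma adjusted p = 0.0828, which passed without MDI replicate 3 (0.0299) and with quantile normalisation, equal totals or a fit restricted to the groups compared (0.0353 to 0.0385).

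The trifunctional protein, which runs the hydration, dehydrogenation and thiolysis of long chains, did not pass. Hadha, its alpha subunit, had 5263, 5346 and 5454 in OA_T0, 5953, 5571 and 6282 in OA and 4739, 5441 and 5452 in MDI. The OA values lay above the MDI values by a narrow margin, with limma adjusted p = 0.0998 and a log2 fold change of 0.19 (95% interval 0.05 to 0.33). Hadhb, the beta subunit with the thiolase site, averaged 746 ± 74.6 in OA_T0, 807 ± 26.3 in OA and 748 ± 57.2 in MDI (SD, n = 3 each), a log2 fold change of 0.11 in OA against MDI (95% interval -0.07 to 0.29). Both intervals lay below that of Acaa2, 1.13 to 1.47; the differences between these genes were not tested. The genes of both subunits are neighbours in RefSeq, and the ratio of Hadha to Hadhb, each per kb of exon, was 3.38 to 4.21 in OA_T0, 3.45 to 4.06 in OA and 3.52 to 3.74 in MDI.

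Echs1 and Hsd17b10 were higher in OA_T0 than in OA. Echs1, the short-chain enoyl-CoA hydratase, had 2210.0, 2286 and 2112 in OA_T0, 1627, 1641 and 1963 in OA and 1707, 1638 and 1931 in MDI. All OA_T0 values lay above all others, and OA and MDI overlapped. It rose in OA_T0 against OA (log2 fold change 0.34, SE 0.08, limma adjusted p = 0.00988). That result no longer passed without OA replicate 1 (adjusted p = 0.0604) or without both libraries low in ribosomal RNA (0.0586). It was also higher in OA_T0 than in MDI (log2 fold change 0.33, SE 0.08, limma adjusted p = 0.0425). Leaving out OA replicate 1 moved that adjusted p to 0.0517, and leaving out MDI replicate 1, MDI replicate 2, OA_T0 replicate 1 or OA_T0 replicate 2 moved it to 0.162, 0.200, 0.177 or 0.0998. With no filter it was 0.162. Hsd17b10, a dehydrogenase of branched short chains that is also a subunit of mitochondrial RNase P, had 2309, 2169.6 and 2317 in OA_T0, 1829, 1858 and 2087 in OA and 1895, 1957 and 2021 in MDI. The OA_T0 libraries again lay above all others, and OA and MDI overlapped. Its rise in OA_T0 against OA (log2 fold change 0.24, SE 0.06, limma adjusted p = 0.0212) was lost without OA replicate 1 (adjusted p = 0.112), OA replicate 2 (0.0813), OA_T0 replicate 1 (0.0963) or OA_T0 replicate 3 (0.0621). The same held without both libraries low in ribosomal RNA (0.221).

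Of the 2 auxiliary enzymes Decr1 passed. Decr1, the dienoyl-CoA reductase for polyunsaturated chains, had 1463, 1380.4 and 1538 in OA_T0, 1776, 1743 and 1966 in OA and 1218, 1361 and 1431 in MDI. The OA libraries lay above all others, and Decr1 rose in OA (log2 fold change 0.45, SE 0.07, limma adjusted p = 0.00170) and fell in OA_T0 against OA (log2 fold change -0.32, SE 0.07, limma adjusted p = 0.00849). Eci1, an enoyl-CoA isomerase that shifts double bonds such as that of oleic acid, averaged 899.8 ± 58.2 in OA_T0, 804 ± 81.7 in OA and 819.8 ± 58.0 in MDI (SD, n = 3 each). Its log2 fold change in OA against MDI was -0.03 (95% interval -0.22 to 0.15, limma adjusted p = 0.885).

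Of the uncoupling proteins, carriers of the inner membrane, Ucp2 had 1301, 1387 and 1287 in OA_T0, 3274, 2851 and 3503 in OA and 1327, 1339 and 1477 in MDI. The 3 OA libraries stood far above the others, with OA replicate 2 the lowest of them. The OA mean was 2.32-fold the MDI mean (log2 fold change 1.21, SE 0.08, limma adjusted p = 1.05e-07), and the OA_T0 mean was 2.42-fold lower than the OA mean (log2 fold change -1.27, SE 0.08, limma adjusted p = 3.81e-08). OA_T0 and MDI overlapped (log2 fold change -0.06, 95% interval -0.22 to 0.10). Ucp3, the adjacent gene on the same chromosome, had 1.03, 0 and 0 in OA_T0, 0, 0 and 0 in OA and 0.45, 0 and 1.13 in MDI, at or below the floor of 3 fragments in all 9 libraries, and was not tested.

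**Figure D2:**
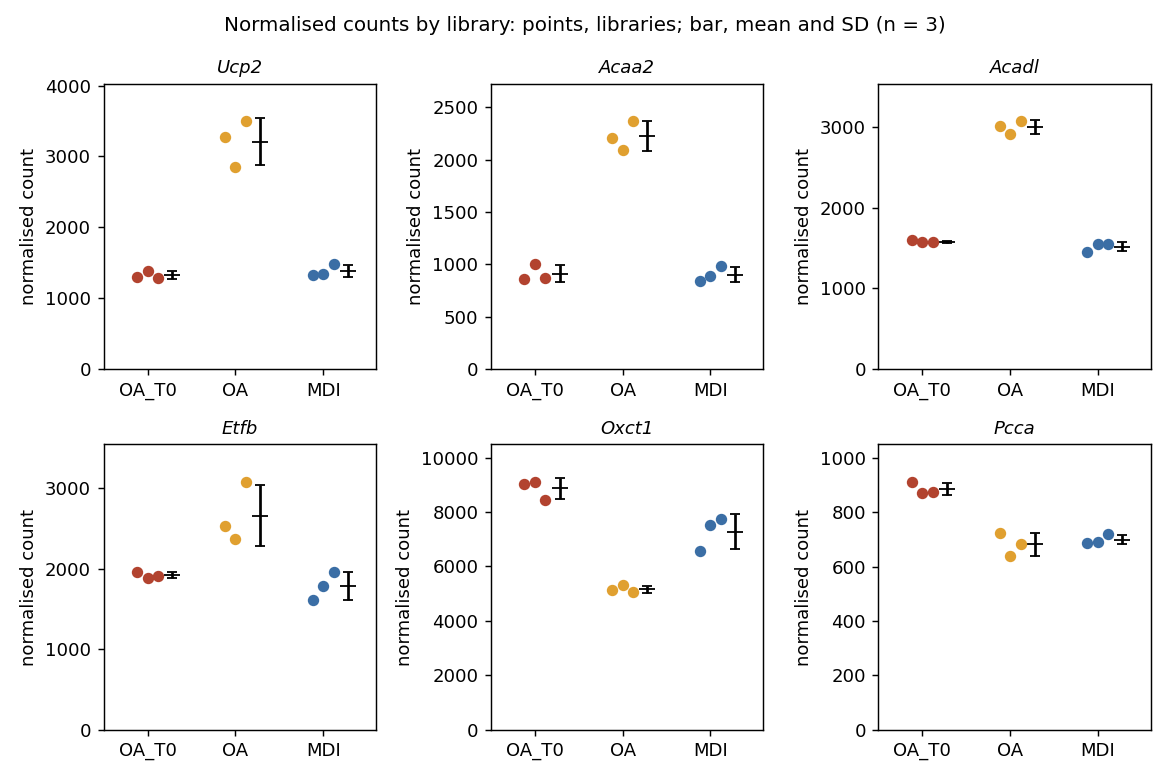
Normalised counts (vertical axes, from 0) of 6 members in each library, with the group mean and SD beside the points. The OA libraries lie highest for Ucp2, Acaa2, Acadl and Etfb and lowest for Oxct1, and the OA_T0 libraries lie highest for Oxct1 and Pcca.

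Of the ketone enzymes, Oxct1 was lower in OA and higher in OA_T0. Oxct1, the transferase that activates acetoacetate in tissues that burn ketones, had 9042, 9116 and 8432 in OA_T0, 5137, 5305 and 5054 in OA and 6562, 7521 and 7757 in MDI. The 3 groups did not overlap: OA was lowest, OA_T0 highest. Oxct1 fell to 5165 ± 128 in OA, against 7280.1 ± 633 in MDI (SD, n = 3 each; log2 fold change -0.49, SE 0.07, limma adjusted p = 2.93e-04). In OA_T0 it was 1.72-fold the OA mean (log2 fold change 0.78, SE 0.07, limma adjusted p = 1.48e-06). It was also higher in OA_T0 than in MDI (log2 fold change 0.29, SE 0.07, limma adjusted p = 0.0299). With 1 library left out, this adjusted p was 0.121 (MDI replicate 1), 0.0770 (MDI replicate 2), 0.165 (OA_T0 replicate 1) or 0.0783 (OA_T0 replicate 2), no longer passing in any of these 4, nor with no filter (0.134).

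Acat1, the acetoacetyl-CoA thiolase that acts after Oxct1, averaged 4845 ± 146 in OA_T0, 4334 ± 199 in OA and 4088 ± 341 in MDI (SD, n = 3 each), with limma adjusted p = 0.106 in OA_T0 against OA and adjusted p = 0.0575 in OA_T0 against MDI. The second passed without MDI replicate 3 (adjusted p = 0.0199) or OA replicate 3 (0.0473), and with quantile normalisation (0.0318) or equal totals (0.0465). The first passed with quantile normalisation (0.0377). The ratio of Oxct1 to Acat1, each per kb of exon, was 1.67 to 1.88 in OA_T0, 1.08 to 1.24 in OA and 1.68 to 1.79 in MDI. Bdh1, the hydroxybutyrate dehydrogenase that makes acetoacetate for Oxct1, was listed at 0 in all 9 libraries, as were 813 of 16676 protein-coding symbols.

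The same window before the start is shown for Ucp2 and Acadvl, which rose in OA, and for Oxct1 and Echs1, which were highest in OA_T0. Capitals mark AGGTCA, the hexamer that nuclear receptors bind, in Acadvl, and TGATGCAAT, a composite site of C/EBP and ATF factors, in Echs1, whose AGGTCA is left in lower case; Ucp2 and Oxct1 held no AGGTCA in this window.
Ucp2 (chr7:100493108-100493357, + strand): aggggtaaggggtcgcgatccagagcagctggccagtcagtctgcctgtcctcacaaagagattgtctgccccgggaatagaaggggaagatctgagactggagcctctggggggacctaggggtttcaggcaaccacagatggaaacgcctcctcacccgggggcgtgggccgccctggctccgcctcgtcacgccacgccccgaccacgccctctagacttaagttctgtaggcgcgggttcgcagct
Acadvl (chr11:70015429-70015678, - strand): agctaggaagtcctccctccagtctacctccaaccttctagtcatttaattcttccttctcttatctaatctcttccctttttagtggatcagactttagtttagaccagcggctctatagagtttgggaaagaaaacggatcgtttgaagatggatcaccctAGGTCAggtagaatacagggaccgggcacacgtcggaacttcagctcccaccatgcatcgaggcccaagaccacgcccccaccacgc
Oxct1 (chr15:4026178-4026427, + strand): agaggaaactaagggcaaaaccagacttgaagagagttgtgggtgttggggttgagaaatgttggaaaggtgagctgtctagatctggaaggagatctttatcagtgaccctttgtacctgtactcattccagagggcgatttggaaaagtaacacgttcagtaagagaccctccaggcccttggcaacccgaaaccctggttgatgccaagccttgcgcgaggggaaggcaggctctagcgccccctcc
Echs1 (chr7:140116422-140116671, - strand): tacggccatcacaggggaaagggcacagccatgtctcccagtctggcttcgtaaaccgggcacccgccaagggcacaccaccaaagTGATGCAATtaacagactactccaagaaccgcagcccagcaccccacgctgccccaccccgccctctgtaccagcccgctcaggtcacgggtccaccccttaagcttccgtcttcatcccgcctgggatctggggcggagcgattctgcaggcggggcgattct
On both strands, AGGTCA was found in 5 of the 27 members with a promoter, or 18.5%, against 14.0% of all windows. The 5 were Acadm, Acadvl, Echs1, Pcca and Ucp3. Here too members were counted per gene and the background per window. An exact repeat of AGGTCA after 1 base of any kind, the spacing of the PPAR element, was found in 0 members and in 0.0335% of all windows. An exact repeat after 4 bases of any kind, the spacing of the LXR element, was found in 0 members and in 0.0152% of all windows. At these shares no match was to be expected among the 27 members, and inexact or more distant sites were not searched. TGATGCAAT was found in Echs1 and in 0.167% of all windows.

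Of the members in the propionyl and leucine paths, none of Pcca, Pccb, Mcee, Auh and Ivd passed in OA against MDI by limma. Pcca, the biotin-carrying subunit of propionyl-CoA carboxylase, had 914, 873 and 877 in OA_T0, 725, 640.0 and 684 in OA and 688, 692 and 719 in MDI. The OA_T0 libraries lay above all others, while OA and MDI overlapped. It rose in OA_T0 against OA (log2 fold change 0.38, SE 0.07, limma adjusted p = 0.00223) and against MDI (log2 fold change 0.34, SE 0.07, limma adjusted p = 0.0170). Against MDI, Pcca no longer passed without MDI replicate 1 or MDI replicate 2 (adjusted p = 0.0857 in both) or without OA_T0 replicate 1 (0.122). Its partner Pccb averaged 520.0 ± 27.3 in OA_T0, 491 ± 30.2 in OA and 488 ± 66.3 in MDI (SD, n = 3 each), with a log2 fold change of 0.08 in OA_T0 against OA (95% interval -0.13 to 0.30). The 2 subunit genes were not compared by a test of their difference. Mcee, the epimerase of the next step, had 190.4, 204 and 194 in OA_T0, 177, 184 and 191 in OA and 141, 131 and 163 in MDI. Every OA_T0 and OA value exceeded every MDI value, with limma adjusted p = 0.0724 in OA_T0 against MDI and adjusted p = 0.108 in OA against MDI. It passed in OA_T0 against MDI without MDI replicate 3 (0.0403).

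Ivd, the isovaleryl-CoA dehydrogenase of leucine breakdown, had 1509.5, 1554 and 1404 in OA_T0, 1189, 1071 and 1213 in OA and 1183, 1173 and 1408 in MDI. The OA_T0 libraries lay above those of OA and overlapped those of MDI. It rose in OA_T0 against OA (log2 fold change 0.36, SE 0.08, limma adjusted p = 0.00666). Against MDI it did not pass (limma adjusted p = 0.117), except when MDI replicate 3 was left out (0.0284). Auh, the hydratase of the same leucine path, averaged 424 ± 8.88 in OA_T0, 454 ± 38.9 in OA and 421 ± 24.8 in MDI (SD, n = 3 each) and passed in no comparison. The other dehydrogenases of this family did not pass at the settings used throughout. Acadsb and Acad8, of isoleucine and valine breakdown, had log2 fold changes of 0.18 (limma adjusted p = 0.0864) and -0.06 (adjusted p = 0.688) in OA_T0 against OA; Acadsb passed there with equal totals (0.0436). Acad9, which is also an assembly factor of complex I, averaged 1597 ± 75.9 in OA_T0, 1486 ± 67.7 in OA and 1429 ± 103 in MDI (SD, n = 3 each). Acad10 and Acad11 were among the lowest members per length, with 95% intervals in OA against MDI of -0.38 to 0.27 and -0.31 to 0.06 on the log2 scale.

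Mlycd, malonyl-CoA decarboxylase, removes the inhibitor of carnitine palmitoyltransferase. It had 137, 139 and 149 in OA_T0, 193, 172 and 209.7 in OA and 117, 146 and 159 in MDI. The OA values lay above all others, and neither contrast passed (limma adjusted p = 0.0683 in OA against MDI, adjusted p = 0.0520 in OA_T0 against OA). It passed in the first without MDI replicate 3 (adjusted p = 0.0415), and in the second without MDI replicate 1 (0.0392) or MDI replicate 3 (0.0445). The second also passed with a filter at 50, equal totals, a fit restricted to the groups compared or robust estimates (0.0375 with equal totals and below 0.05 with the rest).

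**Figure D3:**
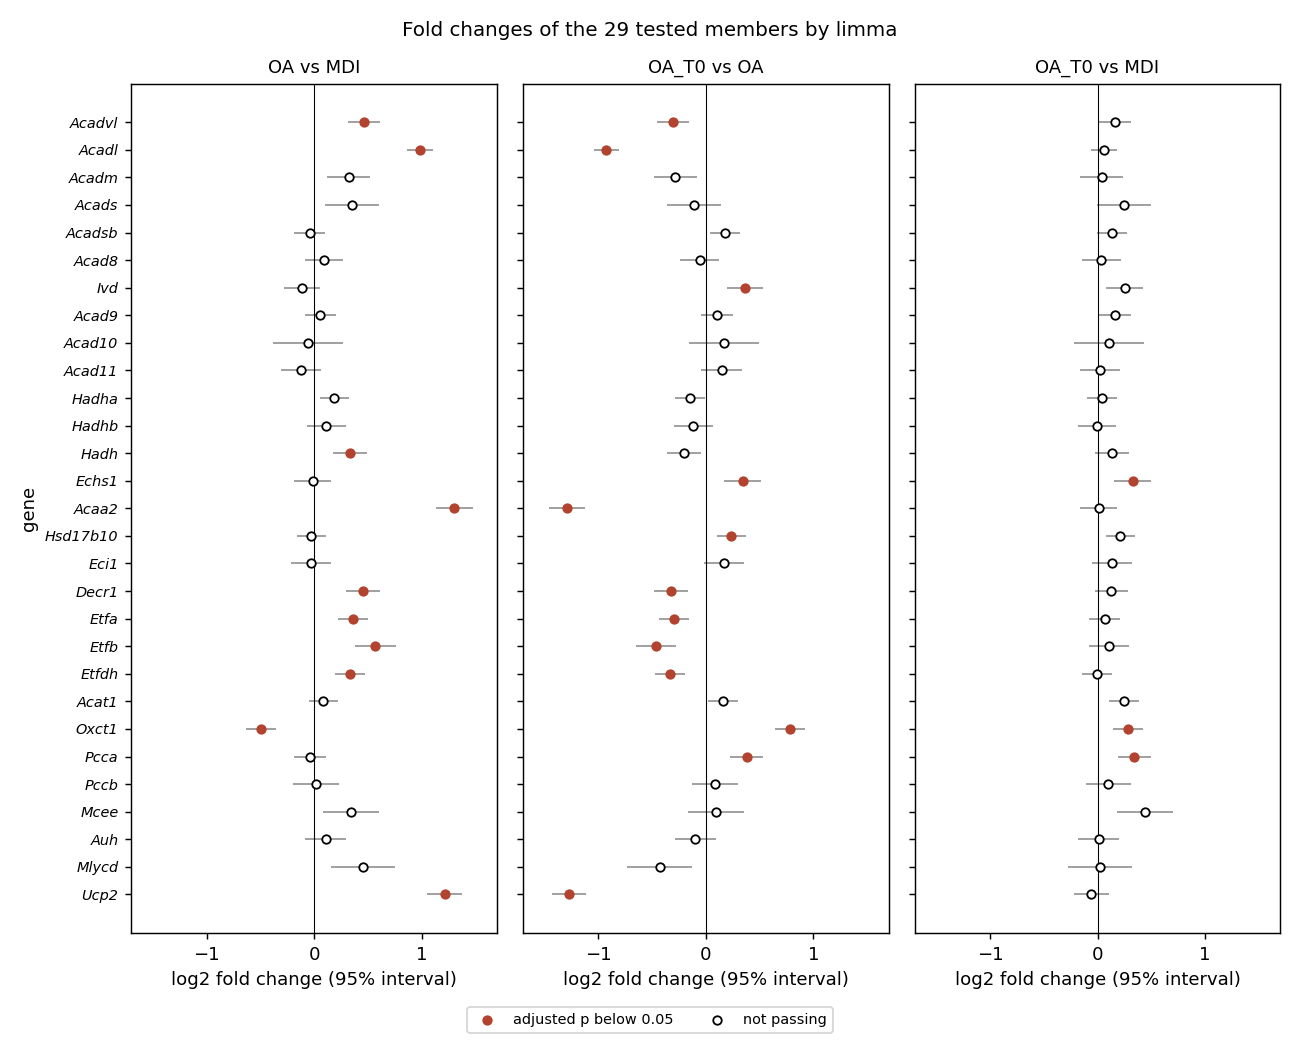
Log2 fold change (horizontal axes) of the 29 tested members with 95% intervals from limma, filled where the adjusted p was below 0.05. The 9 rises in OA vs MDI are filled at the right of the first panel, 8 of those genes are filled at the left of the second panel, and Echs1, Oxct1 and Pcca are filled in the third.

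Set directly against MDI, the 8 genes that rose in OA and fell in OA_T0 against OA passed in none. The 95% interval of the log2 difference between OA_T0 and MDI was -0.16 to 0.18 for Acaa2, -0.22 to 0.10 for Ucp2 and -0.06 to 0.18 for Acadl. It was -0.14 to 0.14 for Etfdh, -0.08 to 0.21 for Etfa and -0.08 to 0.30 for Etfb. For Acadvl it was 0.01 to 0.31 and for Decr1 -0.03 to 0.29. A p that misses the threshold does not show equal levels, and these intervals, which are not adjusted for the number of genes, give the size of difference compatible with the spread. The 3 members higher in OA_T0 than in MDI, Oxct1, Echs1 and Pcca, numbered 0 calls without MDI replicate 1, MDI replicate 2 or OA_T0 replicate 1, 1 without OA_T0 replicate 2, 6 without MDI replicate 3, and 2 without OA replicate 1. The 5 members higher in OA_T0 than in OA numbered 3 without OA replicate 1.

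Per kb of exon, the members spanned a wide range of levels. By the mean over all 9 libraries the highest were Etfb at 2146 ± 40.8 in OA_T0, 2977 ± 421 in OA and 2000.1 ± 194 in MDI, Hsd17b10 at 2284 ± 83.7 in OA_T0, 1940.3 ± 143 in OA and 1974 ± 63.5 in MDI and Oxct1 at 2513 ± 106 in OA_T0, 1464 ± 36.3 in OA and 2064 ± 179 in MDI normalised counts per kb (SD, n = 3 each). Etfa, Hadha, Acat1, Hadh and Echs1 came next. In OA alone, Oxct1 lay below Etfa, Acadl, Hadha and Acaa2 as well. The lowest tested members were Auh at 55.3 ± 1.16 in OA_T0, 59.2 ± 5.07 in OA and 54.9 ± 3.23 in MDI and Acad10 at 38.0 ± 1.89 in OA_T0, 34.2 ± 6.55 in OA and 35.3 ± 4.32 in MDI normalised counts per kb. These ranks rest on the union of annotated exons, 7.67 kb for Auh. Not per length, its mean over all 9 libraries, 433, lay above that of Mcee at 175. Acaa2 and Acadl had per-kb levels in OA of 1467 and 1567, close to that of Hadha at 1478. In MDI the same 2 genes stood at 595 and 793, against 1297 for Hadha. The summed normalised counts of the 31 members, not per length, were 49480.4 to 51116 in OA_T0, 50419 to 55603 in OA and 41867 to 48602 in MDI.

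**Figure D4:**
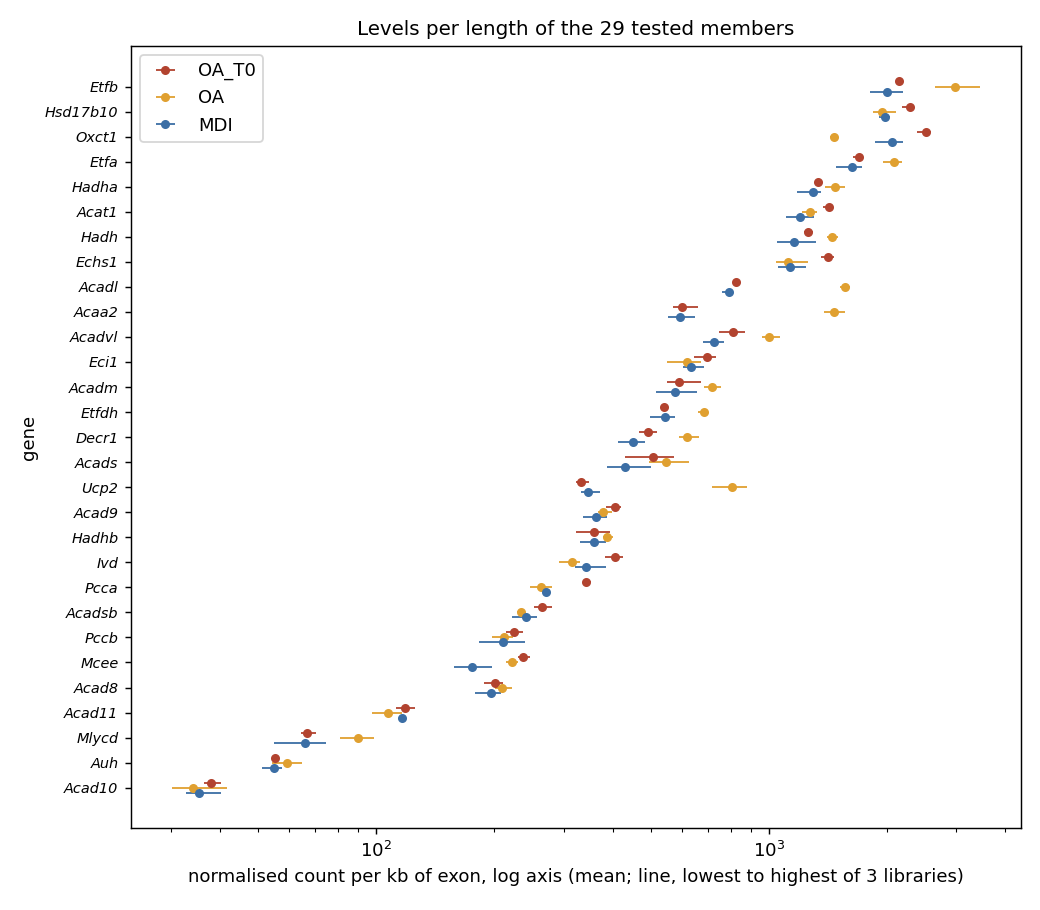
Normalised count per kb of exon on a log axis for the 29 tested members, ordered by their mean over 9 libraries; points are group means and lines run over the 3 libraries. Etfb, Hsd17b10 and Oxct1 lie at the top, and the OA point of Acaa2, Acadl and Ucp2 lies apart from the other 2.

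Other genes of the pathway were read from a list of 27, of which 24 were tested. In OA against MDI 4 rose and 3 fell, where 3.43% and 3.36% of all tested genes did. In OA_T0 against OA 8 rose and 4 fell, where 8.27% and 6.84% of all tested genes did. Cpt1a, Pdk4 and Angptl4 were set by name in the rule for naming genes. Eci2, Slc25a20 and Plin2 were taken by that rule for their small adjusted p in OA against MDI, so those values were selected. The other genes named here and below were picked after their values were seen. In OA against MDI the 4 that rose were Cpt1a, Cpt2 and Slc25a20 of the carnitine shuttle and Eci2, a second enoyl-CoA isomerase. In OA_T0 against OA, Cpt1a, Cpt2, Slc25a20 and Eci2 fell, and Acot2, Mmut, Mmab, Mccc1, Mccc2, Bcat2, Bckdhb and Dbt rose. The 8 numbered 5 without OA replicate 2 or OA_T0 replicate 1. Mccc2 (limma adjusted p = 0.0454) passed without OA replicate 3 or OA_T0 replicate 2 but with no other library left out, and not with no filter (0.0715), quantile normalisation (0.0587) or a fit restricted to the groups compared (0.0754). Bcat2 did not pass with no filter (0.0508) or when OA replicate 1, OA replicate 2 or OA_T0 replicate 1 was missing (0.0579 to 0.0600), and Mccc1 did not without OA replicate 2 (0.0517) or OA_T0 replicate 1 (0.0508). Cpt1a, which makes acylcarnitine at the outer membrane, had 919, 1033 and 1080.1 in OA_T0, 6098, 5829.7 and 6050.2 in OA and 1258, 1245 and 1459 in MDI. Its OA libraries stood above all others and its OA_T0 libraries below all others. Eci2 had 1716, 1694 and 1697 in OA_T0, 2766, 2445 and 2839 in OA and 1374, 1518 and 1644 in MDI, a log2 fold change of 0.83 in OA against MDI (limma adjusted p = 5.02e-06), where its relative Eci1 had -0.03. Cpt2 and Slc25a20 had log2 fold changes of 0.50 and 0.78 in OA against MDI and of -0.52 and -0.90 in OA_T0 against OA. Cpt1a was the 1 that fell in OA_T0 against MDI (log2 fold change -0.39, limma adjusted p = 0.0117), beside 1.36% of all tested genes. It did not pass without OA_T0 replicate 1 (0.102) or with no filter (0.0826).

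The 3 genes of the list that fell in OA against MDI were Acot2, Bckdhb and Dbt. Without MDI replicate 2 the 3 numbered 1, with limma adjusted p = 0.0675 for Dbt. Acot2, a thioesterase, did not pass when any 1 of the 3 MDI libraries was left out (0.0911 to 0.158), nor when OA replicate 1 or 3 was (0.206 and 0.0723). Dbt, a subunit of the branched-chain ketoacid dehydrogenase, had 504, 542 and 490.0 in OA_T0, 387, 365 and 343 in OA and 448, 539.6 and 515 in MDI. Bckdhb, another subunit of that enzyme, had 891, 859.6 and 954 in OA_T0, 668, 625 and 636 in OA and 808, 824 and 882 in MDI. For both, the OA libraries were the lowest 3. Both Dbt and Bckdhb fell in OA against MDI (limma adjusted p = 0.00817 and adjusted p = 0.00454) and rose in OA_T0 against OA (adjusted p = 0.00252 and adjusted p = 3.30e-04). Mmab, which makes the cofactor for methylmalonyl-CoA mutase, was the 1 gene of the list that rose in OA_T0 against MDI (log2 fold change 0.56, limma adjusted p = 1.63e-04). In that comparison 1.25% of all tested genes rose.

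**Figure D5:**
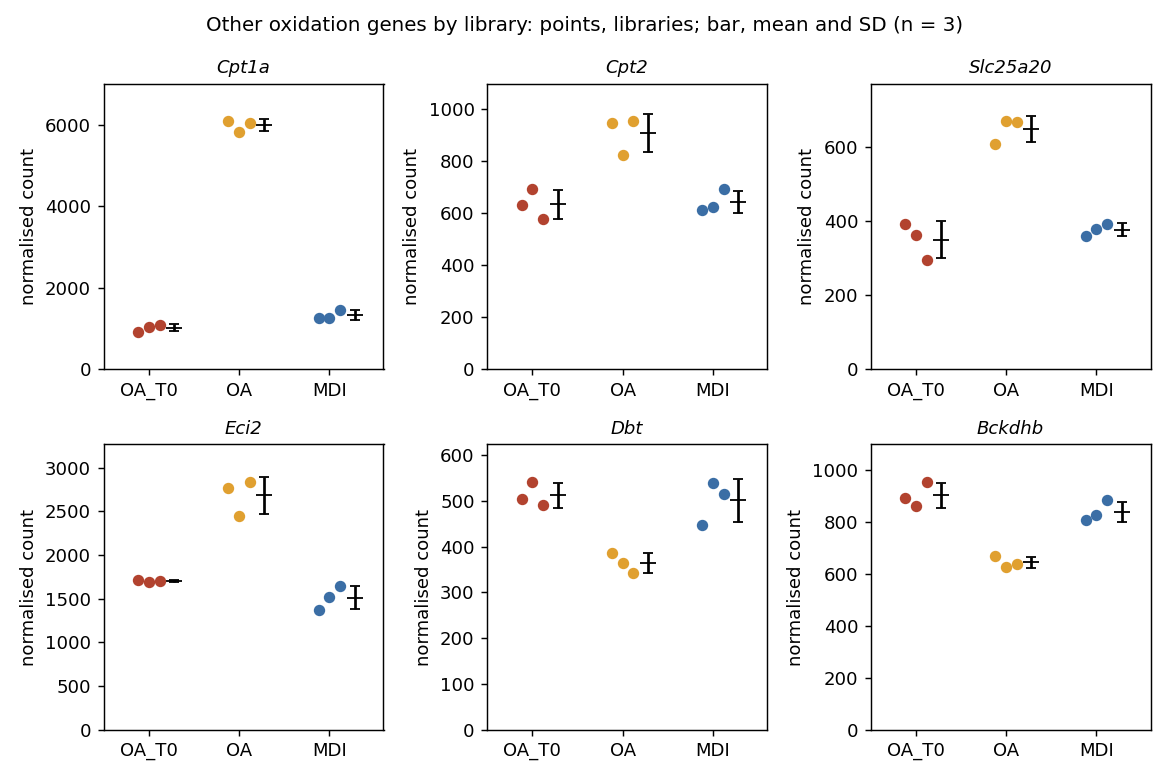
Normalised counts (vertical axes, from 0) of 6 further oxidation genes in each library, with the group mean and SD beside the points. Cpt1a, Cpt2, Slc25a20 and Eci2 are highest in the 3 OA libraries, and Dbt and Bckdhb are lowest there.

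Beside the members, 18 genes of general mitochondrial function were read in the same fit. In OA against MDI 0 rose by limma, beside 3.43% of all tested genes, and 1 fell, Lonp1, a matrix protease, beside 3.36%. At an unadjusted p below 0.05, 0 were higher, beside 11.1% of all tested genes. Lonp1 had limma adjusted p = 0.0463 and did not pass without any 1 of the 3 MDI libraries, the 3 OA libraries or OA_T0 replicate 1 (0.0504 to 0.182). In OA_T0 against OA 6 rose, beside 8.27% of all tested genes, among them Tomm40, a pore of the outer membrane (log2 fold change 0.46). Leaving out either OA replicate 1 or OA_T0 replicate 1 gave 3, and the count was 2 without the libraries low in ribosomal RNA. In OA_T0 against MDI 16 of the 18 had a positive log2 fold change, with a median of 0.10. The median was 0.11 for the members and 0.02 over all tested genes. The 1 that passed, where 1.25% of all tested genes rose, was Sdhb of complex II (log2 fold change 0.29, limma adjusted p = 0.0434). Sdhb did not pass in 5 of 9 fits with 1 library left out, up to 0.231. Their summed level was 109424 to 117182 in OA_T0, 99624 to 103675 in OA and 104074 to 112596 in MDI. Of the 10 preadipocyte markers, Pdgfra, a receptor of precursor cells, rose in OA against MDI (log2 fold change 0.47, limma adjusted p = 0.00406). In OA_T0 against OA, Pdgfra (-0.65) and the collagen gene Col3a1 (-0.40) fell. Dlk1, an inhibitor of adipogenesis, rose (0.28, limma adjusted p = 0.0444) and did not pass with any 1 of 5 libraries left out, the second of MDI and the first and second of both OA and OA_T0 (0.0649 to 0.180). Among 3 tested adipocyte markers Lipe, hormone-sensitive lipase, rose in OA against MDI (1.52) and fell in OA_T0 against OA (-1.55). Pparg, the receptor that drives fat cell formation, rose in OA_T0 against OA (0.30), and did not pass without the libraries low in ribosomal RNA (0.0912). The summed adipocyte list was 1636 to 1841 in OA_T0, 1708 to 1884 in OA and 1349 to 1602 in MDI. In OA_T0 against MDI, Pparg rose (0.33, limma adjusted p = 0.0127) and Col3a1 fell (-0.34, adjusted p = 0.0313); leaving out OA_T0 replicate 1, for example, moved these adjusted p-values to 0.103 and 0.179. Krt19, the 1 tested epithelial marker, fell in OA_T0 against OA (-1.90, limma adjusted p = 0.0272), and not with quantile normalisation (0.140) or without OA_T0 replicate 1 (0.0734). The part of these markers in the results above was not tested.

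Of 15 listed PPAR targets outside beta-oxidation, 10 were tested. In OA against MDI 7 rose (3.43% of all tested genes), and in OA_T0 against OA 7 fell (6.84% of all tested genes). These were not the same 7. Hilpda rose but did not pass in OA_T0 against OA (limma adjusted p = 0.0820), and Txnip fell there without passing in OA against MDI (log2 fold change -0.14). The rise of Hilpda in OA against MDI (limma adjusted p = 0.0135) did not pass with no filter (0.0543). The same rise was lost when the first or second MDI library (0.0611 and 0.0516) or the third OA library (0.057) was missing. Angptl4, a secreted inhibitor of lipoprotein lipase, had 909, 996 and 941 in OA_T0, 12196, 11032 and 13647 in OA and 986, 925 and 1131 in MDI. Its log2 fold change was 3.60 in OA against MDI (limma adjusted p = 5.90e-13) and -3.69 in OA_T0 against OA (adjusted p = 4.06e-13). Plin2, a coat protein of lipid droplets, had log2 fold changes of 1.99 and -2.03 in the same comparisons, and Pdk4, a brake on pyruvate oxidation, of 1.18 and -1.16. In OA_T0 against MDI, Fabp4, a fatty acid carrier of fat cells, rose (0.84, limma adjusted p = 0.00412, or 0.0775 with no filter) and Txnip fell (-0.47, adjusted p = 3.58e-04).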

How the data were processed

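RNA of 9 libraries in 3 groups of 3 was analysed. Per the labels' protocols, poly(A) RNA went into libraries that keep strand. The submitters' processing notes name CASAVA 1.8.2, TopHat, HTSeq, DESeq2 and the build mm9, with no role or order. The deposited values are a signal per gene: normalised counts that are not whole numbers. How they were scaled is not given in the sources used here. Low values lie on steps taken as 1 fragment; between 5 and 50 steps, 62.3% to 68.8% were whole within 0.05 of a step, so whole reads were not recovered and tests for counts were not run. The floors cover counting error only, and the 95% intervals are those of limma, from the spread between libraries.

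The 15002 of 28965 genes whose mean reached 10 were tested as log2(value + 1) by limma 3.58.1 (R 4.3.3) using an intensity trend, 1 spread shared by all groups and Benjamini-Hochberg adjustment over all tested genes. Adding 1 shrinks the fold changes of low genes. The procedure was tested on simulated data. The 31 members and the other lists were chosen with earlier results of these data known. By rule, every member is accounted for, those passing in OA against MDI or OA_T0 against OA and 5 role leaders by library, and of each other list the 3 passing genes with the smallest adjusted p in OA against MDI, plus Cpt1a, Pdk4 and Angptl4. Exon lengths are unions over GENCODE M21 and promoters are from RefSeq (GRCm38.p6). List members without a row under the listed symbol were not analysed here, and 1 gene of the pathway is not reported here. The alternatives were pseudocounts of 0.5 and 5, other filters and scalings, robust estimates, a fit restricted to the groups compared, a replicate block and leaving out libraries.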

Additional observations from a re-analysis of the deposited data

How the results depend on the processing

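Members higher in OA against MDI numbered 8 to 12 under all alternatives run, Oxct1 was lower in each, and no member reversed direction where either value passed. With 1 library left out, members higher numbered 8 to 12 in OA against MDI, 3 to 5 in OA_T0 against OA and 0 to 6 in OA_T0 against MDI, and members lower 8 to 11 in OA_T0 against OA. All genes called numbered 369 to 1273, 1054 to 2528 and 111 to 501 in the same order, with 522, 369 and 562 in OA against MDI without MDI replicate 1, MDI replicate 2 and OA replicate 1, 1206, 1388 and 1054 in OA_T0 against OA without OA replicate 1, OA replicate 2 and OA_T0 replicate 1, and 129, 122 and 111 in OA_T0 against MDI without MDI replicate 1, MDI replicate 2 and OA_T0 replicate 1. The median member log2 fold change lay at 0.0603 to 0.168, -0.139 to -0.0103 and 0.0619 to 0.183. With no filter, all genes called were 467, 1470 and 110 (more low genes tested), and members higher in OA_T0 against MDI were 1. Without OA replicate 1 and OA_T0 replicate 3, OA_T0 against OA had 924 genes called, 3 members higher and 6 members lower. With equal totals the median in OA_T0 against MDI was 0.0762, and all genes there split as 181 higher and 301 lower, against 188 and 204; in OA against MDI the split was 512 and 737, against 514 and 504. The cause of these changes was not tested. With the replicate block, members higher were 9, 5 and 3 and members lower 1, 8 and 0, and no call of a member changed. Of the calls given for other genes, Acot2 and Lonp1 in OA against MDI did not pass (limma adjusted p = 0.0741 and 0.0583). Nor did Dlk1 and Mccc2 in OA_T0 against OA (0.0684 and 0.0524) or Col3a1 and Sdhb in OA_T0 against MDI (0.0669 and 0.0571). Deviations of same-numbered libraries correlated at -0.256 to 0.259 over genes (above 0.1 in 1 of 9 pairs). With 3 libraries per group, these values do not settle whether same-numbered libraries share a culture or a processing batch. Tests for counts (edgeR, DESeq2) were not run, as the values are not counts.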
